A study of Saccharomyces cerevisiae with 48 samples.

Results

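RDY237, profiled here by SLAM-seq, is a budding yeast (Saccharomyces cerevisiae) strain whose ectopic copy of BDF1 carries mutations in both bromodomains. RDY237 derives from RDY73, in which the endogenous Bdf1 and Bdf2 carry a mini-AID degron tag with 3xV5, and OsTIR1, the rice F-box protein that recognises the degron in the presence of auxin, is driven by the GPD1 promoter. The BDF1 copy was integrated at TRP1 under its own promoter and 3' region. Cultures in YPD at 30 °C were given the auxin IAA (indole-3-acetic acid, 1 mM) for 3 h, which marks the tagged Bdf1 and Bdf2 for degradation and leaves the mutated Bdf1 copy, or the solvent DMSO, under which the tagged proteins stay beside it. The comparison used all libraries of this strain, 3 of IAA and 3 of DMSO out of 48 in the series. Both groups received 5 mM 4-thiouracil (4tU). The labels give a pulse of 6 min and the methods a shorter one. The strains RDY234 (unmodified BDF1 copy), RDY235 (BD1 mutated), RDY236 (BD2 mutated) and RDY249 (2 mutated residues in the ET domain), each with the same tagged proteins and 3 libraries per treatment, served for comparison. The mutated residues of the bromodomains and the level of the mutated protein were not analysed here, and no source used here names more than 1 clone per strain.

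Bdf1 and Bdf2 are the budding yeast members of the BET family. A BET protein has a pair of bromodomains, BD1 and BD2, pockets that bind acetylated lysines on histone tails and in Bdf1 prefer acetylated histone H4, followed by an extra-terminal (ET) domain that binds other proteins. Bdf1 is linked to TFIID, the general transcription factor that carries the TATA-binding protein to promoters. The question of the comparison is what the rest of Bdf1 can sustain for 3 h when neither bromodomain is intact. In SLAM-seq, 4tU enters RNA made during the pulse and reads as C in place of T after alkylation, so reads with T>C conversions report new RNA and all reads report total RNA.

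The 6 RDY237 libraries held 5942582 to 8208058 S. cerevisiae reads and 462179 to 722472 reads of the Schizosaccharomyces pombe spike-in. T>C reads, those with at least 2 conversions, numbered 713434, 840338 and 616420 under DMSO and 413215, 330822 and 351806 under IAA. Their share of all S. cerevisiae reads was 11.0%, 10.2% and 9.90% under DMSO and 6.49%, 5.57% and 5.41% under IAA, with no overlap between the groups. The share fell by 4.57 percentage points in the mean (exact two-sided permutation test, p = 0.1, the smallest that 3 against 3 libraries allow, adjusted p = 0.143 over 10 library measures). The T>C share of the S. pombe spike-in, whose cultures were also given 4tU, was 2.60% under DMSO and 2.66% under IAA in the mean and overlapped between the groups. Per S. pombe read there were 1.39, 1.37 and 1.33 S. cerevisiae T>C reads under DMSO and 0.572, 0.483 and 0.579 under IAA, a ratio of means of 0.399. All S. cerevisiae reads per S. pombe read went from a mean of 13.2 to 9.40. Fewer cells per culture and less RNA per cell cannot be told apart in such bulk libraries. Libraries without 4tU were not analysed, so the T>C share that unlabelled RNA gives was not measured.

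**Figure D1:**
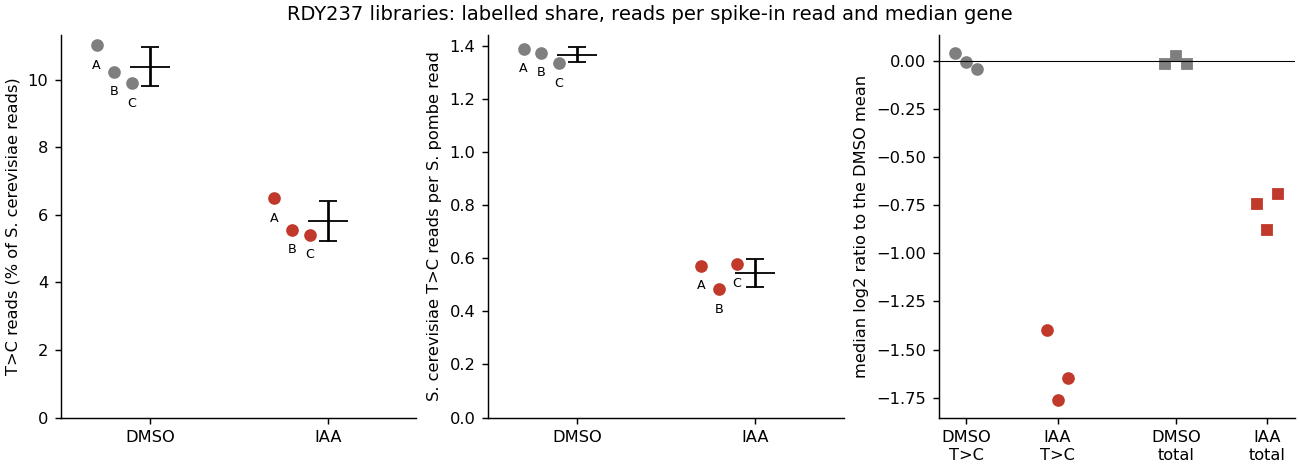
Each point is 1 RDY237 library (A, B, C; left and middle panels with mean and SD, n = 3): T>C share of S. cerevisiae reads in percent, S. cerevisiae T>C reads per S. pombe read, and the median log2 ratio of the tested genes to the DMSO mean. The IAA libraries lie below the DMSO libraries in all panels, and the median gene of T>C reads (-1.40, -1.76 and -1.65) lies below that of total reads (-0.74, -0.88 and -0.69).

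New RNA fell at most genes. After scaling to S. pombe reads, the median log2 change of T>C reads over 5118 tested genes was -1.61, a 3.05-fold decrease. Set against the mean of the DMSO libraries, the median gene lay at -1.40, -1.76 and -1.65 in the 3 IAA libraries (SD 0.19, n = 3) and between -0.05 and 0.04 in the DMSO libraries. With edgeR's quasi-likelihood test, 4629 genes fell (90.4% of those tested; adjusted p under 0.05 and at least 2-fold) and 3 rose (0.0586%). The decrease was broad but not uniform: 90% of genes lay between -2.25 and -0.70, and 5063 of 5118 lay below 0. Total RNA decreased less, with a median of -0.78 (1.71-fold), 1237 genes lower (24.2%) and 33 higher (0.645%).

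**Figure D2:**
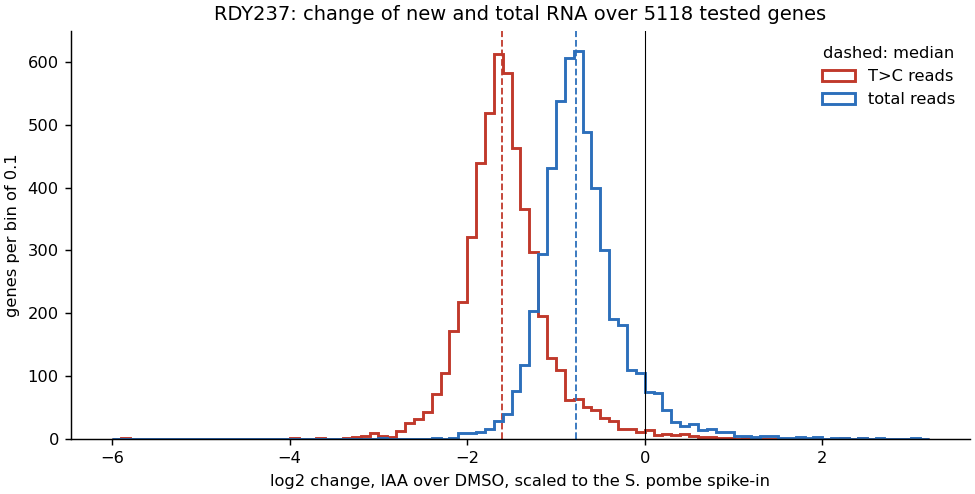
Histogram of the log2 change, IAA over DMSO, of T>C reads (red) and total reads (blue) over the 5118 tested genes, in bins of 0.1, with dashed lines at the medians of -1.61 and -0.78. Both distributions lie left of 0, and that of T>C reads lies further left.

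Genes tied to the labels were looked up, although none of them identifies the mutated copy or the treatment. BDF1 transcripts come from the tagged gene and the ectopic copy alike, so the counts cannot show the degradation, which acts on protein. BDF1 had 499, 474 and 534 spike-in-scaled T>C reads (T>C reads divided by the library's S. pombe size factor) under DMSO and 177, 136 and 157 under IAA, a log2 change of -1.68 ± 0.21 (SE). BDF2 had 433, 362 and 321 under DMSO and 185, 138 and 156 under IAA, or -1.22 ± 0.21. TRP1, where the copy was integrated, had 33.0, 44.0 and 43.7 under DMSO and 22.4, 16.6 and 9.39 under IAA, or -1.30. BDF1 thus fell by about as much as the median gene, at -0.09 ± 0.13 relative to it (adjusted p = 0.765). The parent strain is MAT alpha, and each alpha-specific marker (MF(ALPHA)1, MF(ALPHA)2, STE3) had at least 664 total reads in every RDY237 library, whereas the a-specific MFA1, MFA2, STE2 and BAR1 had at most 43.

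The 3 genes whose T>C reads rose on the spike-in scale were HSP12, GAP1 and TDH1. HSP12 encodes a small stress-induced membrane protein. It had 11.0, 9.16 and 1.22 scaled T>C reads under DMSO and 37.0, 44.9 and 45.3 under IAA, so every IAA library lay above every DMSO library, at a log2 change of 2.50 ± 0.43 (adjusted p = 1.17e-07). These rest on 21 T>C reads in all under DMSO and 155 under IAA. Its T>C share was 0.334% under DMSO, the lowest among the 4940 tested nuclear protein-coding genes, and 0.237% under IAA, while its total reads rose by 3.05 ± 0.21 on the log2 scale, from at most 2950 to at least 14602 scaled reads. How far unlabelled reads with chance conversions enter so low a share was not tested. GAP1, the general amino acid permease, had 11.0, 5.50 and 9.72 scaled T>C reads under DMSO and 38.6, 52.4 and 35.0 under IAA (2.28 ± 0.36, adjusted p = 1.60e-08). Its T>C share was 11.3% under DMSO and 10.3% under IAA, and its total reads rose by 2.44 ± 0.15. TDH1, a glyceraldehyde-3-phosphate dehydrogenase isozyme, had 72.6, 59.5 and 83.8 under DMSO and 138, 172 and 178 under IAA (1.18 ± 0.22, adjusted p = 7.58e-07), and its total reads rose by 2.11 ± 0.17.

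Promoter stretches of these 3 genes are shown because they are the genes that ran against the general decrease. Each run covers bases 250 to 81 before the gene's start in the RefSeq annotation of assembly R64, 5' to 3' on the gene's strand, at chrVI:107006-107175 (plus strand) for HSP12, chrX:338021-338190 (plus) for TDH1 and chrXI:514813-514982 (plus) for GAP1. Capitals mark a TATA box (1 of 8 forms of the TATA consensus, listed with the motif shares further on), the stress response element STRE (AGGGG, or CCCCT on the other strand) or the GATA element (GATAAG), which in yeast are bound by TATA-binding protein, Msn2 and Msn4, and the GATA factors of nitrogen control.
HSP12: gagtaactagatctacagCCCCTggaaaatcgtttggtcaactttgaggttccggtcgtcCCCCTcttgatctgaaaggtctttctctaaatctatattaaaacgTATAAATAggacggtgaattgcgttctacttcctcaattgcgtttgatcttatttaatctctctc
TDH1: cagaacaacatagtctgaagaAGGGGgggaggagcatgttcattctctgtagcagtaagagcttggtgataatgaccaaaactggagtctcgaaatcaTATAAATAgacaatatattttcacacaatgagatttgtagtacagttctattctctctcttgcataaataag
GAP1: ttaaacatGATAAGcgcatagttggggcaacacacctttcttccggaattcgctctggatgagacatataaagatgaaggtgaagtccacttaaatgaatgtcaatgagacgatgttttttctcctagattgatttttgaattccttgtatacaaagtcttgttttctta
HSP12 held 2 STRE matches and 1 TATA box in this stretch, TDH1 1 of each, and GAP1 1 GATA element. The GAP1 stretch also held 1 match each to GATGAG and TTCNNGAA, left in small letters. A TATA box of GAP1 lay outside the stretch shown, within 250 bases before to 50 after the start. These matches are descriptions of letters and not of bound factors.

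To ask which genes fell more or less than the median gene, T>C counts of the 6 libraries were scaled so that the median gene did not change. A gene was then called at an adjusted p under 0.05 and at least 1.5-fold. By edgeR, 374 of 5118 genes lay above the median gene (7.31%) and 71 below it (1.39%), so departures upward were more frequent. The set called below depended on the analysis. DESeq2, another count test, called 25 genes below and 316 above. Leaving out 1 library gave from 37 below (without DMSO library B) to 103 (without IAA library A). Of all tested genes, 90% lay between -0.68 and 0.89 (log2, relative to the median gene). The 374 genes called above had a median spike-in-scaled T>C change of -0.60 and a total RNA change of 0.05, and 208 of them (55.6%) had more total RNA under IAA, against 6.76% of all tested genes. The 71 called below had medians of -2.50 and -1.36, and none had more total RNA. T>C and total values of a gene come from the same libraries, and the T>C reads are among the total reads. Across the 5118 genes the relative T>C change and the total change correlated at r = 0.75 (Spearman 0.68), a description across genes that share these libraries.

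**Figure D3:**
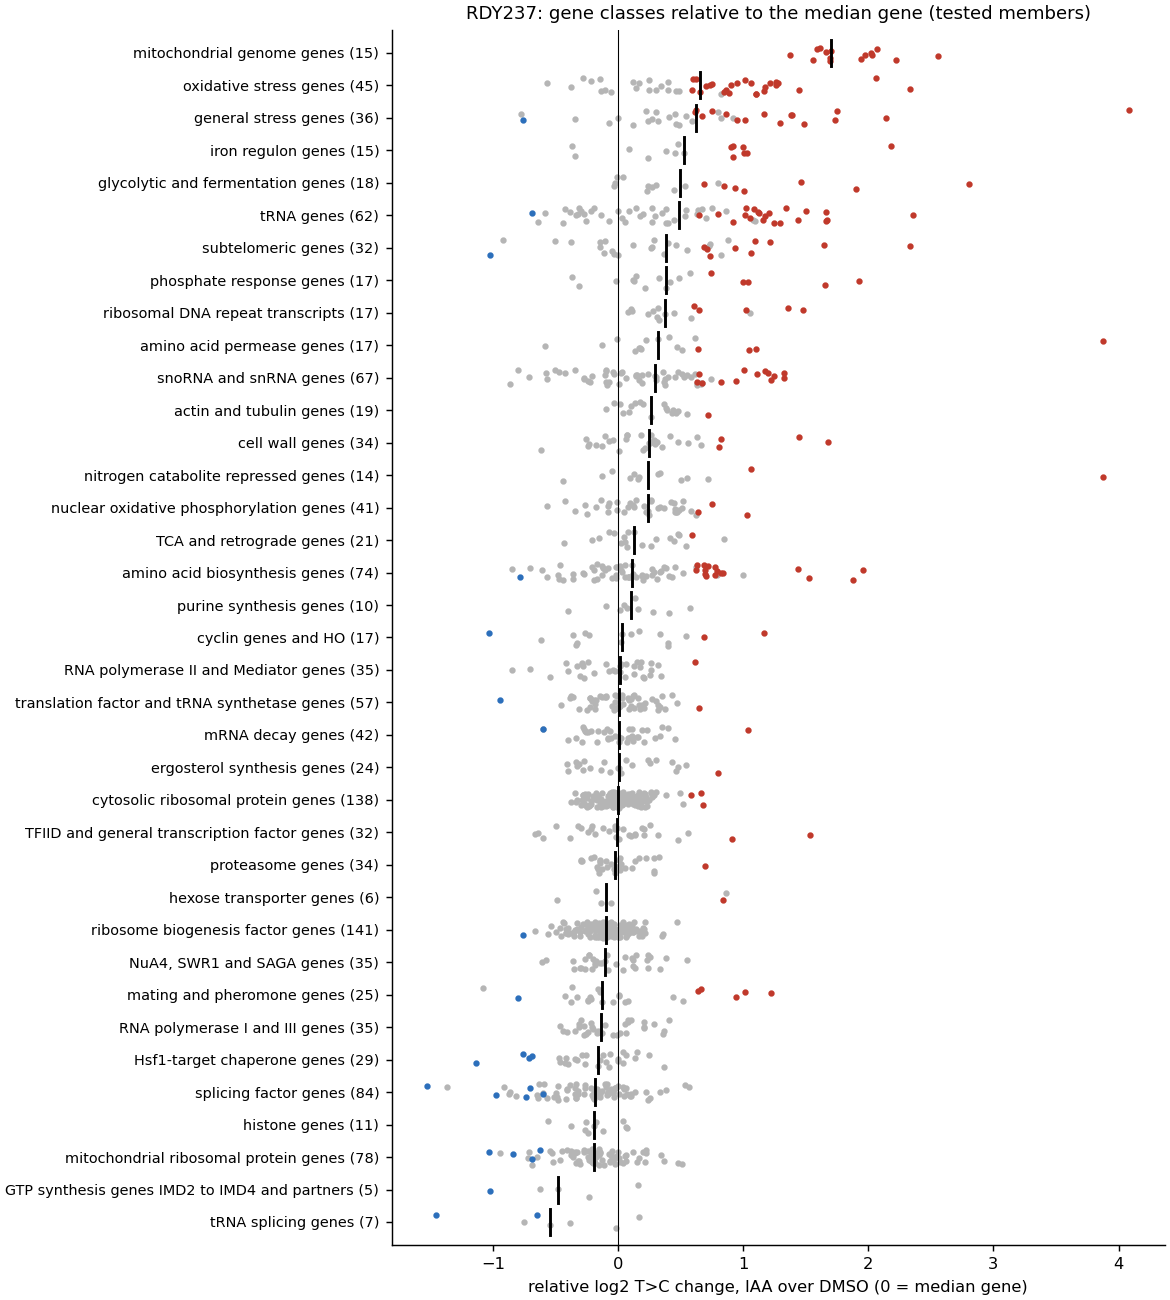
Relative log2 T>C change in RDY237, IAA over DMSO, of the tested members (points) of 37 gene classes, with their medians (black bars) and the number of tested members in brackets. Red points were called above and blue points below the median gene. The 15 mitochondrial genome genes are all called above, and the median lies near 0 for cytosolic ribosomal protein genes.

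The class farthest above the median gene was the mitochondrial genome, which is transcribed by its own single-subunit polymerase Rpo41 and not by RNA polymerase II. All 15 tested mitochondrial genes were called above, against 7.31% of all genes, with a median relative change of 1.70. On the spike-in scale their median T>C change was 0.10 and none was called, while 90.4% of all tested genes were called lower. 21S_RRNA, the large mitochondrial ribosomal RNA, had 334, 270 and 230 scaled T>C reads under DMSO and 342, 350 and 576 under IAA. COX1, cytochrome c oxidase subunit 1, had 212, 188 and 137 under DMSO and 140, 150 and 228 under IAA, and the groups overlapped. The lowest member was AI5_BETA, an intron frame of COX1, at 1.38 ± 0.35 relative to the median gene, and the highest was SCEI, the intron endonuclease inside 21S_RRNA, at 2.56 ± 0.27. Because 13 of the 15 counted intervals overlap another on the same strand, these are not 15 separate measurements. The 2 that do not overlap had a median of 1.77. Mitochondrial T>C shares were low, at a median of 1.28% under DMSO and 1.33% under IAA, against 25.7% and 14.0% for all tested genes. In RDY73, which has no BDF1 copy, the median share of these genes under IAA was 0.298%. How far unlabelled reads contribute to these shares was not tested. The mitochondrial part of all T>C reads was 0.181%, 0.152% and 0.131% under DMSO and 0.407%, 0.452% and 0.670% under IAA.

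Nuclear genes for mitochondria lay nearer to the median gene. The 41 tested oxidative phosphorylation genes of the nucleus had a median relative change of 0.24. None was called below, and 3 were called above (7.32%, the share of all tested genes being 7.31%). These were INH1 and ATP2, for an inhibitor and the beta subunit of the ATP synthase (1.03 ± 0.30, lost in 5 of 11 alternatives, and 0.75 ± 0.14), and CYC1, for cytochrome c (0.64 ± 0.14). The 78 genes of the mitochondrial ribosome lay lower, at a median of -0.19, with none called above. Called below were 4 (5.13%, against 1.39% of all tested genes): MRPL44 (-1.04), MRP35 (-0.84), MRPL37 (-0.69) and SWS2 (-0.62). TCA cycle and retrograde genes lay at 0.12, with 1 of 21 called above, a share of 4.76% (RTG2, 0.59, a call lost in 9 of 12 alternatives).

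Genes against oxidative stress, a list assembled after gene values were seen, lay above the median gene. Of 45 tested, 25 were called above (55.6%, against 7.31% of all tested genes) and none below, with a median relative change of 0.66. Their summed part of all T>C reads was 6.69%, 6.60% and 6.70% under DMSO and 9.62%, 11.0% and 11.6% under IAA. AAD6, a putative aryl-alcohol dehydrogenase gene, had 419, 437 and 517 scaled T>C reads under DMSO and 573, 780 and 888 under IAA (relative change 2.33 ± 0.18). PST2, a flavodoxin-like protein, had 814, 839 and 740 under DMSO and 902, 1106 and 1232 under IAA (2.06 ± 0.16). In both genes the IAA libraries lay above the DMSO libraries even without recentring, although neither passed 2-fold on the spike-in scale (0.71 ± 0.20 and 0.44 ± 0.20). TRX2, a cytosolic thioredoxin and among the most abundant new transcripts, had 8667, 8715 and 9105 under DMSO and 4602, 4818 and 6227 under IAA, so it decreased by less than the median gene (0.86, adjusted p = 0.000528). The same held for the flavohemoglobin YHB1 (1.28), glucose-6-phosphate dehydrogenase ZWF1 (1.27), thioredoxin reductase TRR1 (1.26), sulfiredoxin SRX1 (1.21), the old yellow enzymes OYE3 (1.18) and OYE2 (0.90), peroxiredoxin TSA1 (0.84) and glutathione reductase GLR1 (0.73). YAP1, the factor that activates many of these genes, was itself called above at 0.66. HYR1, a thiol peroxidase, lay at -0.57 ± 0.31 (adjusted p = 0.293).

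AAD6 and OYE3 are shown because they hold Yap1 letters, which most genes of the class lack. The runs cover the same distance before the start in assembly R64, at chrVI:15512-15681 (minus strand) for AAD6 and chrXVI:227452-227621 (minus) for OYE3, and capitals mark the Yap1 motif (TTACTAA, or TTAGTAA on the other strand) and a TATA box.
AAD6: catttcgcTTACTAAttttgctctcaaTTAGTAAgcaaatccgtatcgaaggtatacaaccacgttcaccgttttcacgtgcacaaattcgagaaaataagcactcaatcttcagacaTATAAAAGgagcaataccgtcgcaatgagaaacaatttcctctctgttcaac
OYE3: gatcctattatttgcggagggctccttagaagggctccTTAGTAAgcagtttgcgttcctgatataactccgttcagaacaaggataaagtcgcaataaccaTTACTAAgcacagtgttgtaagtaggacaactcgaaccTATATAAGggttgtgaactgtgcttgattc
Both stretches held 2 Yap1 matches and 1 TATA box. From 250 bases before to 50 after the start, 10 of the 45 oxidative stress genes (22.2%) held the Yap1 motif. Among tested nuclear protein-coding genes the share was 7.91%. PST2 held no such motif in that window. The Yap1 motif was chosen after gene values were seen.

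General stress genes, the set that Msn2 and Msn4 activate, had a median relative change of 0.62 over 36 tested members of 58. Called above were 16 (44.4%, against 7.31% of all tested genes) and called below 1 (2.78%, against 1.39%). The latter was ROQ1, a regulator of ubiquitin ligase Ubr1 (-0.76 ± 0.23, a call lost in 6 of 11 alternatives). STF2, a stress-protective hydrophilin, had 38.5, 41.2 and 38.9 scaled T>C reads under DMSO and 48.6, 50.7 and 74.3 under IAA (2.14 ± 0.21). YGP1, a secreted glycoprotein, had 97.9, 114 and 106 under DMSO and 108, 136 and 107 under IAA, and the groups overlapped while the median gene decreased about 3-fold (relative change 1.75). DDR2 (1.73), HOR7 (1.39), the polyubiquitin gene UBI4 (1.30) and TSL1, a subunit of trehalose synthase (1.16), were called above too. In total RNA 11 of the 36 tested members rose, against 0.645% of all tested genes, and none fell, against 24.2%. The median log2 change of the class was 0.59. On the spike-in scale 16 of the 36 members fell in T>C reads, against 90.4% of all tested genes. Only HSP12 rose, against 0.0586% of all tested genes. The median T>C share of the class went from 12.1% under DMSO to 3.26% under IAA. The T>C share of DDR2 went from 1.37% to 0.247% as its total reads rose by 2.65.

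Glycolytic and fermentation genes lay at a median of 0.49, with 7 of 18 called above (38.9%, against 7.31% of all tested genes) and none below. TDH1 was highest (2.80 ± 0.18), followed by enolase ENO1, which had 121, 112 and 131 scaled T>C reads under DMSO and 149, 149 and 148 under IAA (1.90 ± 0.15). Abundant members of the class stood nearer to the median gene. TDH3 lay at 0.27 (adjusted p = 0.268), PGK1 at 0.30 (adjusted p = 0.159) and ENO2 at 0.24 (adjusted p = 0.350). Total RNA of the class was level, with a median of -0.00. Isozymes such as TDH1, TDH2 and TDH3 share sequence, and reads that map to several of them are uncertain.

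Several nutrient regulons lay above the median gene in part. The shares to compare with are the 7.31% of all tested genes called above and the 1.39% called below. Of 15 iron regulon genes, which Aft1 controls, 7 were called above and none below (median 0.52). The siderophore transporter ARN1 had 109, 198 and 148 scaled T>C reads under DMSO and 226, 201 and 256 under IAA (2.18 ± 0.17). DMSO library B was the highest of its group for FRE1, TIS11 and ARN1, at 516 against 270 and 361 scaled T>C reads for FRE1. Of 74 amino acid biosynthesis genes, 16 were called above and 1 below, at a median of 0.12. Among those called above were the arginine genes ARG3 at 1.96 ± 0.28 and ARG1 at 1.52, and LYS20, homocitrate synthase, stood at 1.44. SAM1, an S-adenosylmethionine synthetase, was called below at -0.78 ± 0.20. Amino acid permeases (median 0.32, 4 of 17 above) were led by GAP1 (3.88 ± 0.30) and MUP3 (1.10 ± 0.17). Phosphate response genes lay at 0.38 with 5 of 17 above, among them the transporter PHO84 (0.74). Purine synthesis genes had none of 10 called in either direction, at a median of 0.11, and ergosterol genes 1 of 24 above (ERG4) at 0.00.

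Non-coding RNA genes were called above in part, with cautions on what the counts hold. The parts called above were 33.9% of tRNA, 29.4% of ribosomal DNA and 19.4% of small nucleolar and nuclear RNA members. Among all tested genes 7.31% were called above and 1.39% below. Only 62 of 299 tRNA genes, which RNA polymerase III transcribes, passed the filter, and of these 21 were called above and 1 below (CDC65, -0.69 ± 0.19, a call lost in 4 of 12 alternatives), at a median of 0.49. The tRNA genes were grouped after gene values were seen. The tRNA intervals run 250 bases past the gene, 18 of the 62 overlap another interval, and their T>C share of 36.9% under DMSO exceeded that of all tested genes (25.7%). The 14 tRNA genes with a mean of at least 50 T>C reads lay at a median of -0.04, so the class median depends on the low-count members. Among the 17 tested ribosomal DNA intervals 5 were called above, at a median of 0.38. RDN18-2, the 18S RNA, had 231, 305 and 318 scaled T>C reads under DMSO and 186, 130 and 465 under IAA, where library C stood far above the other IAA libraries. Its repeats are near-identical copies, so the split between them is uncertain. Small nucleolar and nuclear RNA genes, most of them transcribed by RNA polymerase II, lay at 0.29, with 13 of 67 above and none below.

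The classes of this paragraph had medians between -0.10 and 0.38. Among all tested genes 7.31% were called above and 1.39% below. The part called above was 28.1% for subtelomeric, 11.8% for cell wall and 5.26% for actin and tubulin genes. Of 32 subtelomeric genes that passed the filter, out of 199, 9 were called above and 1 below (median 0.38). Cell wall genes had 4 of 34 above (median 0.25), led by SED1, a major cell wall glycoprotein (1.67), and YPS1, a surface aspartic protease (1.45). Genes under nitrogen catabolite repression had 2 of 14 above (median 0.24), with GAP1 among them. Actin and tubulin genes had 1 of 19 above, ARP2 of the complex that branches actin filaments (0.72, median 0.26). Cyclin genes and HO had 2 of 17 above, CLB1 (1.17) and PCL5 (0.68), and 1 below, the mating-type endonuclease gene HO (-1.03, median 0.03). Hexose transporters had 1 of 6 above, HXT7 (0.84, lost in 4 of 12 alternatives, median -0.10). For mRNA decay, CAF130 of the Ccr4-Not complex was above (1.04) and LSM7 below (-0.60) among 42 genes at a median of 0.01.

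The protein synthesis machinery moved with the median gene. All 138 cytosolic ribosomal protein genes were tested, and their median relative change was -0.00, with 3 called above (2.17%) and none below. Among all tested genes 7.31% were called above and 1.39% below. The middle of the class was narrow, from -0.10 to 0.14 between its quartiles, against -0.25 to 0.24 for all genes. On the spike-in scale 136 of 138 fell, against 90.4% of all tested genes. RPL10 had 2095, 2266 and 2322 scaled T>C reads under DMSO and 1104, 1221 and 1176 under IAA and was the highest member (0.68 ± 0.14), and RPL24A was the lowest (-0.38 ± 0.13, adjusted p = 0.0551). Ribosome biogenesis factors lay slightly lower, at a median of -0.10, with none of 141 above and 1 below (BUD23, a methyltransferase of 18S RNA, -0.76 ± 0.23, a call lost in 6 of 11 alternatives). Translation factors and tRNA synthetases lay at 0.01 with 1 of 57 called each way, TEF2 above (0.65) and TIF4632 below (-0.94, lost in 4 of 11 alternatives). Proteasome genes lay at -0.02, with 1 of 34 above, which was RPN4, the transcription factor of the class (0.70 ± 0.14).

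Genes for the transcription apparatus lay near the median gene or slightly below it as classes. Of 32 genes for TFIID and the general transcription factors 2 were called above and none below, at a median of -0.01, a share no higher than the 7.31% of all tested genes. These were SUA7 and SPT15. SUA7, which encodes TFIIB, had 221, 236.3 and 189 scaled T>C reads under DMSO and 178, 190 and 245 under IAA. The groups overlapped, so that TFIIB transcripts were made at a like level while the median gene decreased about 3-fold (relative change 1.53 ± 0.16, adjusted p = 4.11e-08). SPT15, the TATA-binding protein, had 381, 387 and 359 under DMSO and 227, 213 and 257 under IAA (0.91 ± 0.13, adjusted p = 1.39e-05). The TFIID subunits TAF1 and TAF5 lay at 0.21 and -0.30 and were not called (adjusted p = 0.525 and 0.278). RNA polymerase II and Mediator genes lay at 0.02 with 1 of 35 above (RPO21, the largest subunit, 0.61 ± 0.15, lost in 3 of 12 alternatives), NuA4, SWR1 and SAGA genes at -0.11 with none of 35 called, and RNA polymerase I and III genes at -0.13 with none of 35 called.

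Chaperone genes of the heat shock factor Hsf1 lay on the other side of the median gene from the stress genes of Msn2 and Msn4. Of 29 tested, 4 were called below (13.8%, against 1.39% of all tested genes) and none above, at a median of -0.16. BTN2, a sorting factor for misfolded proteins, had 2149, 2295 and 2016 scaled T>C reads under DMSO and 606, 318 and 357 under IAA (-0.76 ± 0.14). SSA4, the stress-induced Hsp70, had 107, 111 and 111 under DMSO and 23.1, 9.15 and 17.1 under IAA (-1.13 ± 0.22). HSP82, the inducible Hsp90, lay at -0.71 and CUR1, a paralogue of BTN2, at -0.69. KAR2, the Hsp70 of the endoplasmic reticulum, was the highest member at 0.37 ± 0.13 (adjusted p = 0.0738). Mating genes were called in both directions, 5 of 25 above (20%) and 1 below (4%), against 7.31% and 1.39% of all tested genes. The alpha-factor genes MF(ALPHA)2 (1.22 ± 0.15) and MF(ALPHA)1 (1.01 ± 0.14) were called above with PRM4, AFB1 and SAG1, whereas FUS2, which acts in cell fusion, was called below (-0.80 ± 0.24, lost in 5 of 11 alternatives).

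RNA processing genes and a few small groups lay below the median gene. Of 84 splicing factor genes 5 were called below (5.95%, against 1.39% of all tested genes) and none above. The 5 were DBR1, MUD1, SPP2, CUS1 and LSM7. The median of the class was -0.18, and 66 of the 84 lay below 0. Of 7 genes for tRNA splicing, SEN54 and SEN15 were called below, at a median of -0.55. Both lists were assembled after gene values were seen. The GTP synthesis group of 5 lay at -0.48, with IMD2, IMP dehydrogenase, called below: it had 49.5, 65.0 and 64.4 scaled T>C reads under DMSO and 16.2, 8.32 and 4.27 under IAA (-1.02 ± 0.30). This call was lost in 5 of 12 alternatives, whose values ran from -1.52 to -0.71. No histone gene of 11 was called, at a median of -0.19. The lowest, HTA1 for histone H2A, lay at -0.56 ± 0.13 with an adjusted p of 0.00237 but did not reach 1.5-fold.

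By the naming rule, the deepest relative decreases were those of DBR1 and SEN54. DBR1 is the lariat debranching enzyme that opens excised introns, and SEN54 a subunit of the tRNA splicing endonuclease. The rule set a floor on DMSO reads only, and the IAA values of both genes were low. DBR1 had 56.1, 40.3 and 47.4 scaled T>C reads under DMSO and 6.94, 3.33 and 5.98 under IAA. Its log2 change was -3.11 ± 0.36 on the spike-in scale and -1.53 ± 0.33 relative to the median gene (adjusted p = 0.00195), with total reads at -2.001 ± 0.21. SEN54 had 53.9, 47.6 and 54.7 under DMSO and 10.0, 4.16 and 4.27 under IAA (-1.46 ± 0.32 relative to the median gene, adjusted p = 0.00199). The arrestin-related adaptor ART5 (-1.41), COQ11 of coenzyme Q synthesis (-1.31), the xanthine phosphoribosyltransferase XPT1 (-1.25), DPI35 (-1.19), the eisosome protein SEG2 (-1.15), YGL176C (-1.15), SSA4, the Rab GTPase YPT10 (-1.08), the exonuclease EXO1 (-1.06) and the ribosome rescue factor HBS1 (-1.04) followed. By the rule that chose these 12 genes, on the relative scale, the 3 IAA libraries lay below the 3 DMSO libraries. XPT1, DPI35, SEG2, YGL176C, YPT10 and HBS1 lost their call in at least 1 alternative analysis, and the other 6 kept it in all that were run, as did the 12 highest genes. The genes with lower values than DBR1 on either scale had too few DMSO reads for the rule. Among them BNA7, which acts in NAD synthesis, had 61 T>C reads under DMSO and 1 under IAA, a scaled ratio of 79.3 (95% interval 13.7 to 3180, exact, counting error only), and its counted interval overlaps TIF35.

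The 12 highest genes by the same rule were TDH1, AAD6, LAP3, 21S_RRNA, ARN1, STF2, COB, PST2, AIM33, BI4, SNG1 and YRO2, at relative changes from 2.80 to 1.97. LAP3, a cysteine aminopeptidase, had 286, 246 and 198 scaled T>C reads under DMSO and 437, 334 and 385 under IAA (2.26 ± 0.14). Its T>C share was 25.8% under DMSO and 27.7% under IAA. SNG1, a membrane protein of drug resistance, had 51.7, 55.9 and 49.8 under DMSO and 60.9, 78.2 and 69.2 under IAA (2.003 ± 0.19). COB, cytochrome b, and BI4, the maturase within its introns, are mitochondrial and share bases.

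**Figure D4:**
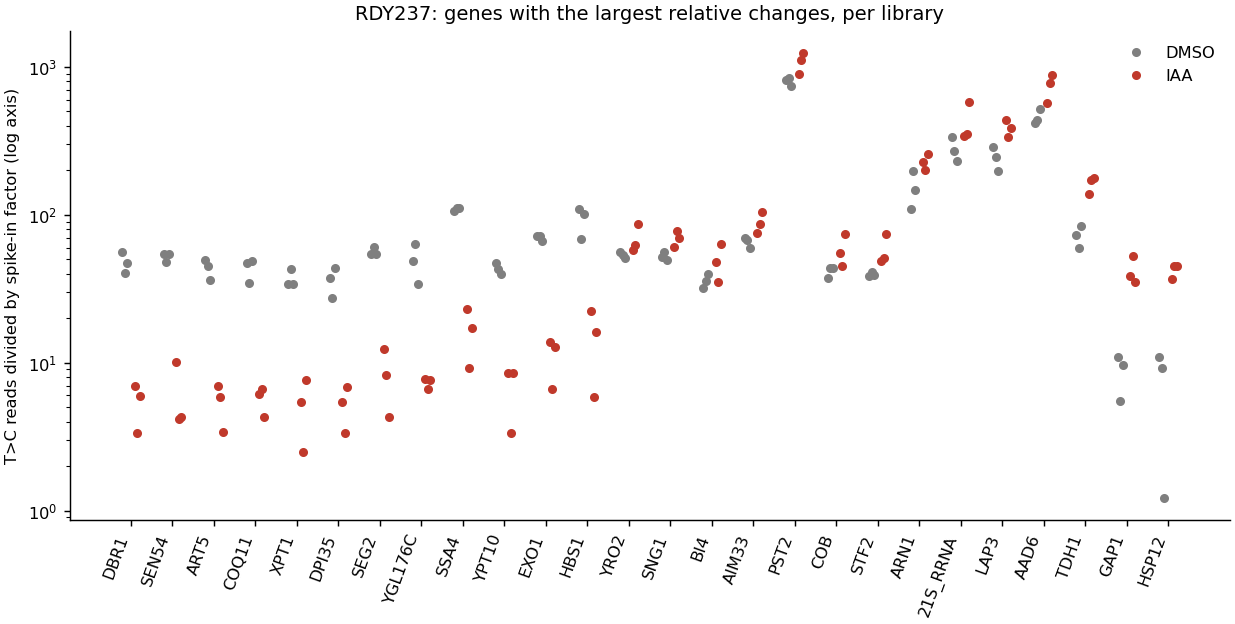
Scaled T>C reads (T>C reads divided by the S. pombe size factor, log axis) of the 12 lowest and 12 highest genes relative to the median gene, with HSP12 and GAP1, in each of 3 DMSO (grey) and 3 IAA (red) libraries. From DBR1 to HBS1 the IAA points lie below the DMSO points, and from YRO2 to HSP12 above them, except in BI4, where they overlap on this scale.

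DBR1 and SEN54 are shown as the counterpart to the promoters above. The runs lie at chrXI:168910-169079 (minus strand) and chrXVI:398186-398355 (minus) in assembly R64, at the same distance from the start, with capitals reserved for a Yap1 motif or a TATA box.
DBR1: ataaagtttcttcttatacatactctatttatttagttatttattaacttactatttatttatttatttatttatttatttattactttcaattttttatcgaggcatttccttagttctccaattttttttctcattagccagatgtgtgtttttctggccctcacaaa
SEN54: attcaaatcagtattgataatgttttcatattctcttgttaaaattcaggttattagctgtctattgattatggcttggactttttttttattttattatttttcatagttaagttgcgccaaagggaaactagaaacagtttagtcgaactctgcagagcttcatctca
Neither stretch held letters of either motif, which says only that these letters are not in this window.

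Promoter letters were counted in windows from 250 bases before to 50 after the start of 4940 tested nuclear protein-coding genes, on both strands. The TATA box (TATAAAAA, TATAAAAG, TATAAATA, TATAAATG, TATATAAA, TATATAAG, TATATATA or TATATATG) was present in 51.4% of the 315 such genes called above, in 28.6% of the 70 called below and in 34.8% of all. Stated from the other side, 9.42% of genes with a TATA box were called above and 4.75% of those without. The Yap1 motif was in 19.7% of genes called above, 1.43% of those called below and 7.91% of all. In the same order the Gcn4 motif (TGACTCA) was in 3.81%, 1.43% and 2.69%, and the Aft1 motif (GCACCC) in 5.71%, 2.86% and 4.13%. The Yap1, Gcn4 and Aft1 motifs were chosen after gene values were seen. The Reb1 motif (TTACCCG) was less frequent in both called sets, in 3.17% of genes called above and 2.86% of those called below (2 genes). It was in 8.22% of all. STRE letters were in 27.0%, 20.0% and 21.0% in the same order, and the heat shock type (TTCNNGAA) in 13.7%, 12.9% and 13.2%. The shares for PAC (GATGAG) were 16.8%, 21.4% and 20.7%, and those for the element of GATA factors were 16.8%, 15.7% and 14.3%. Those for MCB (ACGCGT) were 1.9%, 1.43% and 3.24%, and those for the Cbf1 motif (CACGTG) 2.22%, 1.43% and 3.2%. By class, a TATA box was in 80.6% of general stress, 77.8% of glycolytic and 66.7% of oxidative stress genes, but also in 81.8% of histone genes, whose median lay below 0. It was in 18.8% of cytosolic ribosomal protein genes. No test was made of these shares, and genes of one class are not independent.

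The median relative change differed little with level under DMSO, while the spread was widest at the lowest counts and did not narrow throughout. In 5 bins of 988 genes from low to high scaled T>C reads under DMSO, the median relative change was -0.05, -0.10, -0.04, 0.01 and 0.02. Between the 10th and the 90th percentile the genes spanned -0.76 to 0.73 in the lowest bin and -0.375 to 0.46 in the fourth. In the highest bin they spanned -0.27 to 0.69, with a higher upper end than in the fourth. The part called above was 4.86%, 3.24%, 3.85%, 7.09% and 12.9%, in the order of rising counts. The part called below was 1.11%, 0.81%, 2.23%, 2.02% and 0.911% in the same order. Counts bear on which changes can be called, and how far they shape these parts was not tested. By T>C share under DMSO, the part called above was 5.97% in the lowest 988 genes and 10.7% in the highest 988. Genes with an intron in the coding sequence had a median of -0.02, as had those without.

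With an unmodified BDF1 copy, the same IAA treatment left the median gene at -0.04 in RDY234. The RDY237 response lay below that of RDY234 by a median of 1.56 on the log2 scale, with 4510 genes lower (88.1%) and 2 higher (0.0391%), GAP1 and SCEI, by the edgeR contrast of the responses. GAP1 kept this call in all 13 alternatives and SCEI lost it in 4. With a single bromodomain mutated, the median response was -0.18 in RDY235 (BD1) and -0.58 in RDY236 (BD2). The sum of the 2 single responses less that of RDY234, on the log scale, had a median of -0.72 over genes. The double mutant lay below that sum by a median of 0.87, and 4908 of 5118 genes (95.9%) lay on that side. Single genes could hardly be called: 28 were lower (0.547%) and none higher, with 1887 at an unadjusted p under 0.05. This count was unstable. It ranged from 0 to 845 when single libraries were left out, with 845 without RDY237 IAA library A and 420 without RDY234 DMSO library B. The RDY236 DMSO libraries had T>C shares of 11.0%, 12.4% and 15.7%, and without the highest of them, library B, the count was 822. The median difference stayed between -0.98 and -0.76 in all those fits. The contrasts of this paragraph share libraries with each other, those of RDY234 and RDY237.

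HTB2, for histone H2B, was named after its values were seen and shows the single responses beside the double one. It changed by 0.09 in RDY234, 0.18 in RDY235, -0.27 in RDY236 and -1.84 in RDY237, which lies 1.65 ± 0.39 below the sum (adjusted p = 0.0446). The largest contrast was that of BNA7 at -4.24 ± 1.08 (adjusted p = 0.0472), on 1 T>C read under IAA. BNA7 lost this call in 19 of 25 alternatives. The other extremes of this contrast lost theirs in 20 (MED8, EMA19 and TOS2) or 13 (RAX1). Some fits without 1 library called 0 genes, so the call of HTB2 was lost there as well. For GAP1 the response exceeded that of RDY234 by 2.16.

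RDY249, with 2 mutated residues in the ET domain, was compared as a strain with another domain altered, each strain scaled to its own median gene. Across 5118 genes the relative responses correlated at r = 0.57 (Spearman 0.45), a description over genes. Of the 374 genes called above in RDY237, 358 (95.7%) lay above 0 in RDY249, against 48.4% of all tested genes. Of the 71 called below, 9 (12.7%) did. The difference of the relative responses was called for 8 genes, 3 lower in RDY237 (0.0586%) and 5 higher (0.0977%), with 407 at an unadjusted p under 0.05. SLF1, a La-motif protein linked to copper, had 68.2, 59.5 and 66.8 scaled T>C reads under DMSO and 60.9, 54.9 and 88.8 under IAA in RDY237. Its relative change was 1.68 in RDY237 and -0.39 in RDY249 (difference 2.06 ± 0.33, adjusted p = 0.000322). ATG1, the autophagy kinase, lay at 1.87 and 0.24, FPR1, a proline isomerase whose interval overlaps YNL134C, at 1.81 and 0.33, and SUA7 at 1.53 and 0.48. BTN2 was below the median gene in both strains, less so in RDY237 (-0.76 and -1.71). HBN1 was above in both, less so in RDY237 (0.90 and 1.91), while YCR025C (-0.10 and 1.15) and YLR154C-H (-0.07 and 1.20) stood out in RDY249. The mitochondrial genome lay high in both strains, at medians of 1.70 and 1.57, and the Hsf1 chaperones lay at -0.16 and -0.58. Histones lay at -0.19 and 0.28. The labels name no batch. The library names of RDY249 carry higher numbers than those of RDY237, and a difference in preparation, if there was one, cannot be told apart from the strain here.

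**Figure D5:**
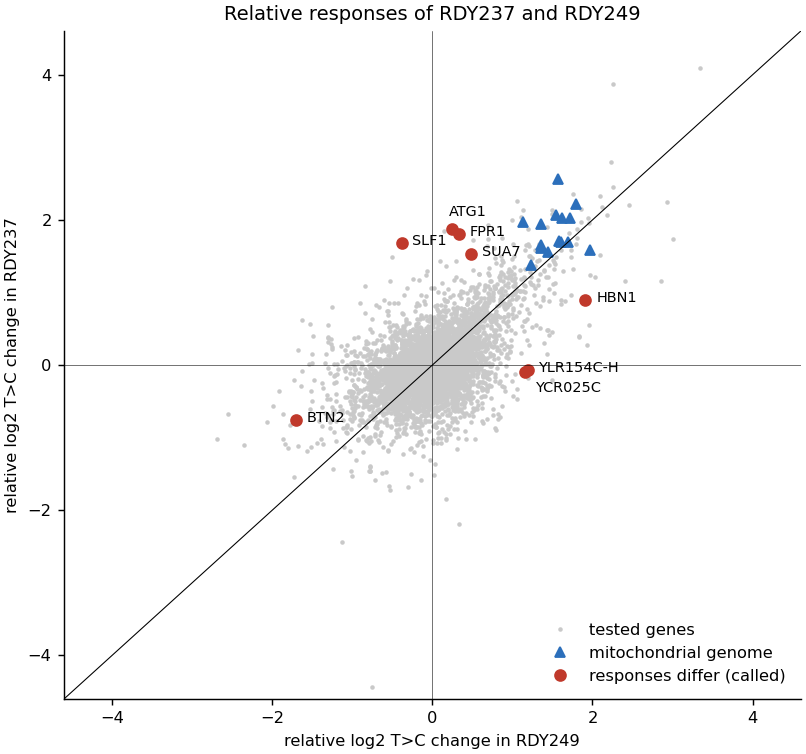
Relative log2 T>C change (IAA over DMSO, 0 = median gene) of 5118 tested genes in RDY249 (horizontal) and RDY237 (vertical), with the line of equal response. Blue triangles are the mitochondrial genome genes and red circles the 8 genes whose responses differ, SLF1, ATG1, FPR1 and SUA7 above the line with BTN2, and HBN1, YCR025C and YLR154C-H below it.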

How the data were processed

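The 6 libraries of RDY237 and the 42 others of the series were read from the deposited count tables. The authors trimmed reads with fastp 0.23.2 and used SLAM-DUNK 0.4.3 for alignment, filtering and counting (submitters' processing notes and methods). The deposited values are raw read counts per gene for 1 library each, of all reads and of reads with at least 2 T>C conversions, on S. cerevisiae R64 intervals of which 6460 of 6465 run 250 bases past the gene. Of these, 1316 share bases with another on the same strand. The deposited counts of covered T positions and conversions served only to describe the libraries. Names came from the reference gene table (6462 matched).

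Size factors were the median of ratios of total counts over 4955 S. pombe genes, and ran from 0.823 to 1.30 in RDY237. The 5118 genes tested averaged 10 or more T>C reads across the 48 libraries. The quasi-likelihood test of edgeR 4.0.16 (R 4.3.3) was fitted to all 48 libraries with 1 coefficient per group, and adjusted p-values are Benjamini-Hochberg over all tested genes. SE denotes the log2 change divided by the square root of the F statistic. The relative fit used the 6 RDY237 libraries with size factors from the T>C counts of 5100 genes, and the RDY249 comparison the 12 libraries of both strains. Calls on the spike-in scale needed 2-fold, and relative calls 1.5-fold. Replicates are lettered libraries, which the methods call biological. Replicate pairs of RDY237 differed by more than sampling noise (chi-square over its degrees of freedom, 5.14 or more), so none was counted as a duplicate. The interval of a ratio of reads is from the exact binomial and covers counting error alone, as no molecular identifiers mark PCR copies. The fits were also run on simulated counts in which only a small part of the genes changed and spike-in factors were taken as known. A decrease at most genes, as in these libraries, was not simulated.

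The members and gene lists were chosen with earlier results of these data known. The lists of oxidative stress, tRNA, splicing factor and tRNA splicing genes and the Yap1, Gcn4 and Aft1 motifs were added after gene values were seen. Genes were named by rule: the 12 highest and 12 lowest relative changes among called genes with non-overlapping groups on that scale and a mean of at least 30 T>C reads under DMSO, every gene raised on the spike-in scale, the 2 highest and 2 lowest of each list, the label checks, and the 5 extremes of each contrast between strains. Other list members named were chosen after their values were seen. Alternatives were DESeq2 1.42.0, TMM, other spike-in sums, a mean count of at least 50 or no filter, removal of overlapping intervals, a replicate block, and leaving out each library.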

Additional observations from a re-analysis of the deposited data

Results flagged for a closer look

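The responses of RDY237 and RDY234 to IAA differed at 4512 genes by the contrast of the responses in edgeR, 4510 of them lower in RDY237. The response of RDY237 differed from the sum of the single-mutant responses at 28 genes, all lower. The relative responses of RDY237 and RDY249 differed at 8 genes. The differences, RDY237 minus RDY249 on the log2 scale, were -1.27 for YLR154C-H, -1.25 for YCR025C, -1.02 for HBN1, 0.95 for BTN2, 1.06 for SUA7, 1.48 for FPR1, 1.63 for ATG1 and 2.06 for SLF1. Among these, SLF1, FPR1 and YLR154C-H kept their call under all alternatives run, BTN2 lost it in 9, SUA7 in 8, YCR025C in 6, HBN1 in 2 and ATG1 in 10.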

How the results depend on the processing

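The scaled change per gene depends on the spike-in by construction, while the T>C share of reads does not use it. With TMM on the S. cerevisiae counts, which sets the typical gene to no change, the median of the T>C change was -0.031 and 210 genes were called, 29 lower and 181 higher. Fewer genes were tested when T>C reads had to average 50 or more, and 2200 were then called on the spike-in scale and 275 relative to the median gene (50 lower, 225 higher). Leaving out each RDY237 library gave 4515 to 4644 calls on the spike-in scale (median -1.72 to -1.53), 1008 to 1505 for total reads (median -0.81 to -0.72) and 345 to 529 relative to the median gene. Leaving out each library in turn gave 4311 to 4592 calls against RDY234, 3 to 10 against RDY249 and 0 to 845 against the sum of the single mutants, for which DESeq2 called 310. The cause of this last range was not tested. Replicate letters were not taken as pairs, since libraries with the same letter correlated at 0.16, 0.03 and -0.02 in their T>C deviations. With the replicate block, 4632 genes were called on the spike-in scale, 1295 for total reads and 424 relative to the median gene, 417 of them among the 445 called without it. Of 75 named genes with a relative call, 44 kept it in every alternative and 31 lost it in at least 1.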
